A study of Mus musculus with 9 samples.

Results

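RNA polymerase I and the factors that process ribosomal RNA (rRNA) were followed as a group of 55 genes. The genes were chosen by name, from what their proteins are known to do, out of 10762 genes in the deposited table. All 55 were present there, each on a single row. Because they were chosen out of these genes, this does not show whether a filter on low values removed others. Ribosomal proteins and DEAD-box helicases were kept out of the list. The list was put together with earlier results of these data in view. The hairpin comparisons below therefore describe the members, and the adjusted p-values printed for single genes belong to the fit over all genes, not to the list.

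The libraries came from B16.SIY cells, a mouse melanoma line of strain C57BL/6 that carries the model antigen SIY joined to the fluorescent protein dsRED. All 3 groups were stable lines made with lentivirus and kept by puromycin, so the controls share the virus and the drug. One group carried a control short hairpin RNA (shRNA), and the other groups carried the hairpins shRNA1 or shRNA2 against Decr2, which encodes a peroxisomal 2,4-dienoyl-CoA reductase of fatty acid breakdown. Each group had 3 libraries, numbered 0, 1 and 2 in the sample titles. No label says that the libraries of a group were separate cultures or whether a line was cloned, so a p-value here is about the spread from library to library, and that spread may be technical.

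Ribosomes are assembled in the nucleolus. RNA polymerase I copies the ribosomal DNA into a long precursor, and small nucleolar ribonucleoproteins (snoRNPs) modify its sugars and bases. Large assemblies of processing factors fold and cut the precursor into the RNAs of the small and the large subunit. Cells that grow fast, melanoma cells among them, run this pathway at a high rate, and the genes for its proteins are known targets of the transcription factor MYC. The members were sorted by role into 7 sub-steps: transcription by RNA polymerase I (8 genes), nucleolar scaffold and regulator proteins (4), the box C/D snoRNP core (3), the box H/ACA snoRNP core (4), the small-subunit processome (17), late factors of the small-subunit precursor (5) and factors of the large-subunit precursor (14).

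Decr2 was examined in every library as a check of the labels. It read 3.96, 4.10 and 3.71 with the control hairpin, 2.87, 2.51 and 3.18 with shRNA1, and 0.84, 1.18 and 1.55 with shRNA2, as log2 values scaled to a similar total per library. The 3 groups did not overlap. All 8 melanocyte lineage genes looked for were in the table, against 0 of 10 immune, 0 of 6 epithelial, 1 of 6 endothelial and 3 of 7 fibroblast and pericyte markers; the 3 markers of the last list read between -1.33 and 4.43 in single libraries, and the melanocyte genes between 3.90 and 13.1. How many reads stand behind each library is unknown, and the library medians lay between 5.35 and 5.38.

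Messenger RNAs of 20 of the 55 members were called lower with each Decr2 hairpin, and those of 34 members with shRNA1 and 23 with shRNA2 did not pass the test. The median member changed by -0.31 on the log2 scale with shRNA1 and by -0.40 with shRNA2, where the median of all genes was 0.00 in each. With shRNA1, 21 of 55 members fell and 0 rose, beside 5.49% of all genes called lower and 6.92% called higher (limma, adjusted p under 0.05). With shRNA2, 32 of 55 fell and 0 rose, beside 5.67% and 7.27%. In the average of both hairpins 33 fell, 0 rose and 22 did not pass, beside 7.89% of all genes called lower and 9.69% called higher. The 20 members called lower with each hairpin stand beside 3.01% of all genes. Both comparisons use the same control libraries, so the counts are not independent of each other. By sign alone, with no test, 53 members were below 0 with shRNA1 (49.7% of all genes), 54 with shRNA2 (49.4%) and 54 in the average (50.1%).

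**Figure D1:**
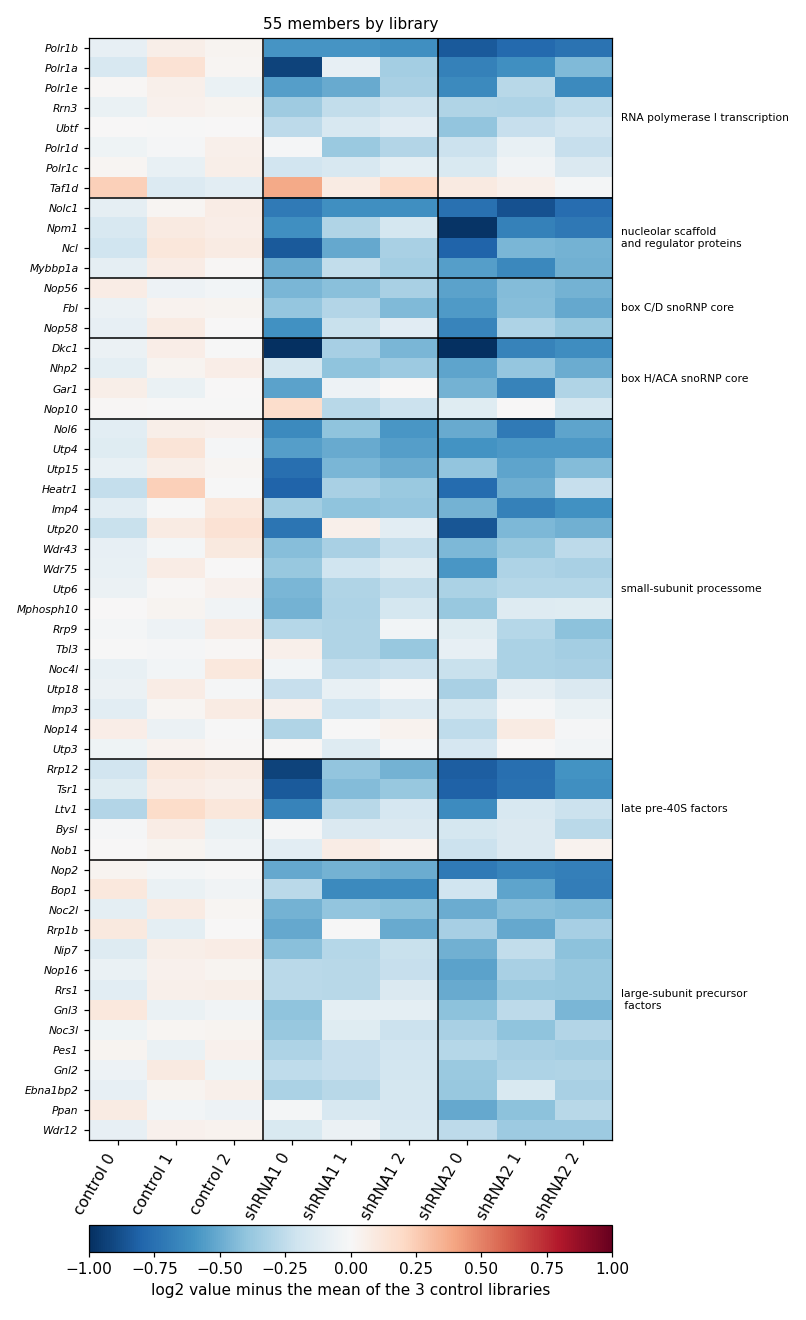
Each row is a member and each column a library, and the colour is the log2 value minus the mean of the 3 control libraries (blue is lower, red higher, with the scale in the bar). Rows are grouped by sub-step and sorted by the average fold change, and 34 of the 55 rows are below every control in all 6 hairpin libraries.

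The members' values separated the hairpin lines from the control line more often than they overlapped. All 6 hairpin libraries lay below all 3 controls for 34 of 55 members, beside 10.9% of all genes. With shRNA1 alone the 3 libraries lay below the controls for 36 members, beside 16.6%, and with shRNA2 alone for 46 members, beside 18.7%. No member had all 6 hairpin libraries above the controls, which 12.0% of all genes did. Set against the control of the same number, 48, 50 and 52 members were lower in the shRNA1 libraries 0, 1 and 2, and 55, 51 and 53 in the shRNA2 libraries. Of all 10762 genes, 5265, 5335 and 5410 were lower in the shRNA1 libraries by the same count, and 5243, 5335 and 5385 in the shRNA2 libraries. These values come from bulk RNA, so fewer cells that express a gene and less of its RNA per cell cannot be told apart. They were scaled to similar totals per library, and the total was lower in every hairpin library than in every control. Levels of rRNA itself were not analysed here.

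The counts depend on single libraries. Without control replicate 1 the members called numbered 7 with shRNA1, 14 with shRNA2 and 13 in the average, and without control replicate 2 they numbered 7, 12 and 12. Of all genes, 3.15% and 3.88% (without control replicate 1) and 3.05% and 3.77% (without control replicate 2) were then called in either direction with shRNA1 and shRNA2, and 5.72% and 5.86% in the average. The replicate number as a block in the fit raised the count for shRNA1 to 34 and the count for both hairpins to 33, all lower, beside 11.2% and 6.24% of all genes. Without shRNA1 replicate 2 the count was 11 with shRNA1 and 11 with both hairpins, beside 6.02% and 3.72% of all genes in either direction. Without shRNA2 replicates 0, 1 and 2 in turn it was 20, 16 and 18 with shRNA2, beside 9.60%, 4.01% and 4.38%. Without shRNA2 replicates 1 and 2 it was 12 and 13 with both, beside 2.91% and 3.06%. Without control replicate 1 or 2 it was 6 with both, beside 1.75% and 1.76%. The share of all genes called thus moved with the library left out as well.

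The windows around the start sites were searched for the E-box CACGTG, a motif that MYC with its partner MAX can bind. Which factor binds a site cannot be read from its letters. RefSeq windows of 300 bases (GRCm38.p6, from 250 before to 50 after a start site) were matched for 46 of 55 members and for 8596 genes of the table. An E-box was found in 11 of 46 member windows (23.9%) and in 10.6% of the 8596. It was in 8 of the 25 windows of members that fell in the average (32.0%) against 3 of the other 21 (14.3%). That split follows the hairpin calls and rests on 8 and 3 genes. Of the 3, Ltv1 and Utp20 were called lower in the average with the replicate block. No window was matched for Rrp12, Rrs1, Bop1, Nol6, Utp6, Fbl, Gnl2 and Npm1, which fell in the average. Tbl3, which did not pass, had no window either. The missing windows were thus mostly those of members that fell, and their E-boxes are unknown. A link between the motif and the members' values was not tested. The motif reads the same on both strands. Of the 12 E-boxes in member windows, 7 began at or after the start site, while 13.9% of the 1035 E-boxes in all windows did. The palindromic site of NRF1, searched as well, was in 0 of 46 member windows and in 2.36% of all windows. The E-boxes of the 8 members that fell are printed with up to 10 bases on each side, to show how near to the start site they lie; capitals mark the E-box, and the signed number gives its first base counted from the RefSeq start site.
Imp4 (chr1:34439698-34439723, plus strand, -121): ggtcttagacCACGTGacatcccaaa
Nop2 (chr6:125131813-125131838, plus strand, -60): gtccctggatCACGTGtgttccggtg
Rrn3 (chr16:13780474-13780499, plus strand, -215): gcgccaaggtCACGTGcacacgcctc
Rrn3 (chr16:13780641-13780666, plus strand, -48): acgctctgctCACGTGggccgcgtcc
Pes1 (chr11:3963967-3963992, plus strand, 3): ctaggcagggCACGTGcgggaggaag
Utp4 (chr8:106893645-106893670, plus strand, 16): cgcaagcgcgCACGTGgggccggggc
Wdr43 (chr17:71616222-71616247, plus strand, 18): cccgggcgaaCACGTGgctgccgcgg
Tsr1 (chr11:74898094-74898119, plus strand, 25): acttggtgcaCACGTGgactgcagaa
Mybbp1a (chr11:72441357-72441376, plus strand, 41): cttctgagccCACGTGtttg

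**Figure D2:**
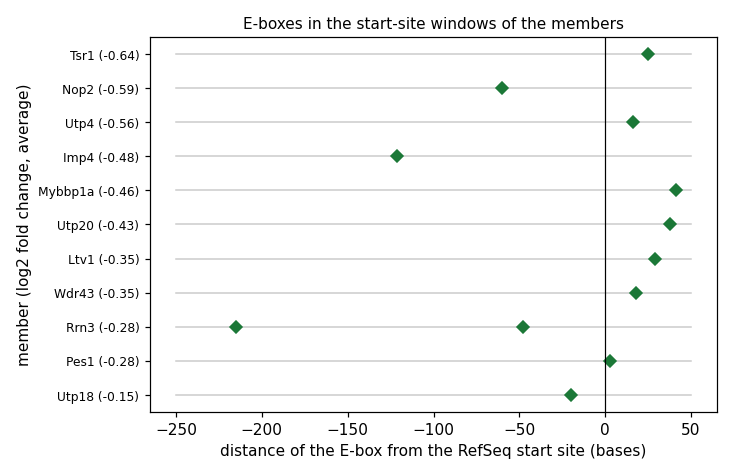
The horizontal axis is the distance in bases from the RefSeq start site, each grey line is the searched window of a member, and each diamond is the first base of an E-box. The number beside a name is the log2 fold change in the average of both hairpins, and 7 of the 12 diamonds lie at or after the start site.

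Among the factors of transcription by RNA polymerase I, 4 of 8 fell in the average of both hairpins, 0 rose and 4 did not pass (median -0.25). Polr1b, a core subunit of the polymerase (chromosome 2, 129100995 to 129126594, plus strand; coordinates are those of GENCODE M21 on GRCm38), read 6.13, 6.27 and 6.23 with the control hairpin, 5.62, 5.62 and 5.60 with shRNA1, and 5.37, 5.43 and 5.47 with shRNA2. It fell by 0.60 (SE 0.07, limma adjusted p = 0.0021) with shRNA1 and by 0.79 (SE 0.07, limma adjusted p = 0.000684) with shRNA2, to 66.1% and 58.0% of the control level. The 3 groups were in separate ranges, with shRNA2 lowest in every library.

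Polr1e, a polymerase subunit that works in initiation and elongation, read 4.44, 4.49 and 4.37 in the controls, 3.89, 3.93 and 4.11 with shRNA1, and 3.80, 4.16 and 3.79 with shRNA2. It fell by 0.46 (SE 0.12, limma adjusted p = 0.04) and 0.52 (SE 0.12, adjusted p = 0.0258). The hairpin groups overlapped each other, and both lay below the controls. Rrn3, the growth-regulated factor that brings the polymerase to its promoter, read 7.03, 7.14 and 7.12 in the controls, 6.74, 6.85 and 6.88 with shRNA1, and 6.80, 6.78 and 6.84 with shRNA2. It fell by 0.27 (SE 0.07, limma adjusted p = 0.033) and 0.29 (SE 0.07, adjusted p = 0.0274), again with no hairpin library inside the control range.

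The catalytic subunit Polr1a changed by -0.45 with shRNA1 and -0.58 with shRNA2 with a wide error (SE 0.19 each) and did not pass in either (limma adjusted p = 0.154 and 0.0765; 0.0348 and 0.0144 with the replicate block). Ubtf, which binds along the ribosomal DNA, fell with shRNA2 by 0.27 (limma adjusted p = 0.0459), and its change with shRNA1 was -0.18 (adjusted p = 0.161). Polr1c and Polr1d, which RNA polymerase III also uses, changed by between -0.23 and -0.11 and did not pass. Taf1d, a subunit of the promoter selectivity factor, was the member with a positive average (0.13, limma adjusted p = 0.397); it was singled out after its values were seen. It read 6.02, 5.63 and 5.67 in the controls and between 5.76 and 6.15 in the hairpin libraries. Without the libraries numbered 0 it passed as higher with shRNA1 (0.26, limma adjusted p = 0.0186).

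The nucleolar scaffold and regulator proteins had the lowest median of the sub-steps, -0.57, and 4 of 4 fell in the average. Nolc1, a phosphoprotein that escorts snoRNPs between Cajal bodies and the nucleolus (chromosome 19, 46075863 to 46085530, plus strand), read 7.50, 7.61 and 7.66 in the controls, 6.89, 6.98 and 6.98 with shRNA1, and 6.85, 6.72 and 6.83 with shRNA2. It fell by 0.64 (SE 0.07, limma adjusted p = 0.00206) and 0.79 (SE 0.07, adjusted p = 0.000847), to 64.1% and 57.7% of control. The gap between the lowest control and the highest hairpin library was wider than the range within any group.

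Ncl, nucleolin, which binds nascent rRNA, read 10.61, 10.91 and 10.89 in the controls, 9.96, 10.29 and 10.48 with shRNA1, and 10.01, 10.35 and 10.33 with shRNA2. It fell by 0.56 (SE 0.15, limma adjusted p = 0.0449) and 0.58 (SE 0.15, adjusted p = 0.0406). In each group the library numbered 0 was the lowest. Npm1, nucleophosmin, a chaperone of the nucleolus whose mRNA has many processed pseudogene copies and whose count is uncertain for that reason, read 10.58, 10.83 and 10.80 in the controls, 10.12, 10.44 and 10.57 with shRNA1, and 9.76, 10.06 and 10.03 with shRNA2. It fell by 0.79 with shRNA2 (SE 0.13, limma adjusted p = 0.00862), and with shRNA1 its change was -0.36 (SE 0.13, adjusted p = 0.113; 0.00759 with the replicate block). Mybbp1a, a nucleolar partner of RNA polymerase I, fell from 8.21, 8.38 and 8.31 to 7.80, 8.05 and 7.96 with shRNA1 and to 7.75, 7.66 and 7.82 with shRNA2, a log2 fold change of -0.36 (SE 0.09, limma adjusted p = 0.0287) and -0.56 (SE 0.09, adjusted p = 0.00591). All 6 hairpin libraries of Mybbp1a lay below the controls, and the hairpin groups overlapped each other.

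The box C/D snoRNPs place methyl groups on the sugars of rRNA. Of the 3 members sorted into their core, 2 fell in the average and 1 did not pass (median -0.44). Fbl, fibrillarin, the methyltransferase, read 6.90, 7.0 and 6.99 in the controls, 6.57, 6.67 and 6.52 with shRNA1, and 6.39, 6.53 and 6.45 with shRNA2. It fell by 0.38 (SE 0.07, limma adjusted p = 0.0136) and 0.50 (SE 0.07, adjusted p = 0.00479). Nop56, a scaffold of the particle (chromosome 2, 130274430 to 130279313, plus strand), read 8.14, 8.01 and 8.04 in the controls, 7.60, 7.64 and 7.74 with shRNA1, and 7.53, 7.63 and 7.59 with shRNA2. It fell by 0.40 (SE 0.07, limma adjusted p = 0.0101) and 0.48 (SE 0.07, adjusted p = 0.00507). Both genes were below their controls in all 6 hairpin libraries. So was Nop58, the partner of Nop56, whose change of -0.38 in the average missed the threshold (limma adjusted p = 0.0552; 0.005 with the block).

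The box H/ACA snoRNPs turn uridine into pseudouridine. Of their 4 members 2 fell in the average and 2 did not pass (median -0.36). Dkc1, dyskerin, the pseudouridine synthase, which is also part of telomerase, read 7.12, 7.24 and 7.17 in the controls, 6.11, 6.85 and 6.72 with shRNA1, and 6.17, 6.51 and 6.56 with shRNA2. It fell by 0.76 with shRNA2 (SE 0.18, limma adjusted p = 0.0268), and its change with shRNA1 was -0.62 (SE 0.18, adjusted p = 0.0556; 0.00657 with the replicate block). In the hairpin lines the library numbered 0 was the lowest by a wide margin. Nhp2, a core protein, read 6.91, 7.04 and 7.08 in the controls, 6.83, 6.61 and 6.65 with shRNA1, and 6.49, 6.62 and 6.52 with shRNA2. It fell by 0.31 (SE 0.08, limma adjusted p = 0.0411) and 0.47 (SE 0.08, adjusted p = 0.0103), with shRNA1 replicate 0 close to the lowest control. The other core proteins, Gar1 (-0.34 in the average, limma adjusted p = 0.0987) and Nop10 (-0.10, adjusted p = 0.52), did not pass.

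The small-subunit processome is the assembly that forms on the nascent precursor and makes its early cuts. Of its 17 members 7 fell in the average, 0 rose and 10 did not pass, with a median of -0.31 and a range from -0.56 to -0.05. Utp4 (chromosome 8, 106893636 to 106923088, plus strand), of the subcomplex that binds the precursor first, read 6.05, 6.30 and 6.15 in the controls, 5.61, 5.66 and 5.62 with shRNA1, and 5.57, 5.59 and 5.59 with shRNA2. It fell by 0.53 (SE 0.08, limma adjusted p = 0.00497) and 0.58 (SE 0.08, adjusted p = 0.00362). The 6 hairpin libraries spanned a narrower range than the 3 controls did. Utp15, of the same subcomplex, read 6.05, 6.18 and 6.15 in the controls, 5.38, 5.67 and 5.63 with shRNA1, and 5.73, 5.60 and 5.69 with shRNA2. It fell by 0.57 (SE 0.09, limma adjusted p = 0.00763) and 0.45 (SE 0.09, adjusted p = 0.0162), and is among the 11 members whose value was not lower with shRNA2 than with shRNA1.

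Nol6, another component of the processome, read 6.03, 6.19 and 6.18 in the controls, 5.50, 5.73 and 5.55 with shRNA1, and 5.63, 5.42 and 5.60 with shRNA2. It fell by 0.54 (SE 0.09, limma adjusted p = 0.00945) and 0.58 (SE 0.09, adjusted p = 0.00662). Imp4, which joins Imp3 and Mphosph10 in a small module of the processome, read 6.85, 6.95 and 7.06 in the controls, 6.61, 6.55 and 6.57 with shRNA1, and 6.48, 6.28 and 6.35 with shRNA2. For Imp4 the 3 groups were in separate ranges, and it fell by 0.38 (SE 0.08, limma adjusted p = 0.0195) and 0.58 (SE 0.08, adjusted p = 0.00407). Its partners did not pass in the average: Mphosph10 changed by -0.26 (limma adjusted p = 0.0612; 0.0214 with the replicate block) and Imp3 by -0.09 (adjusted p = 0.474). The smallest changes of the sub-step were those of Utp3 (-0.05) and Nop14 (-0.08), whose hairpin libraries overlapped the controls. Utp6, Wdr43 and Wdr75 fell in the average by between 0.31 and 0.35. Heatr1, a large scaffold of the processome, had a change of -0.50 in the average that did not pass (limma adjusted p = 0.0541; 0.00328 with the replicate block). Rrp9, Tbl3, Noc4l and Utp18 changed by between -0.24 and -0.15 and did not pass.

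Utp20, a very large scaffold of the processome, read 6.07, 6.38 and 6.44 in the controls, 5.57, 6.35 and 6.19 with shRNA1, and 5.44, 5.85 and 5.81 with shRNA2. Its changes of -0.26 (SE 0.20, limma adjusted p = 0.435) and -0.60 (SE 0.20, adjusted p = 0.0854) did not pass (0.0753 and 0.00379 with the block). The library numbered 0 was the lowest of each group.

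Among the late factors of the small-subunit precursor, which act up to its final cut in the cytoplasm, 2 of 5 fell in the average and 3 did not pass (median -0.35). Tsr1, a GTPase-like factor (chromosome 11, 74898071 to 74909342, plus strand), read 6.83, 7.02 and 7.0 in the controls, 6.11, 6.52 and 6.57 with shRNA1, and 6.14, 6.20 and 6.33 with shRNA2. It fell by 0.55 (SE 0.12, limma adjusted p = 0.0234) and 0.72 (SE 0.12, adjusted p = 0.00864). Rrp12, an export factor of the precursor, read 4.95, 5.25 and 5.22 in the controls, 4.22, 4.75 and 4.67 with shRNA1, and 4.32, 4.39 and 4.54 with shRNA2. It fell by 0.60 (SE 0.15, limma adjusted p = 0.0331) and 0.72 (SE 0.15, adjusted p = 0.0167). Both were below their controls in all 6 hairpin libraries. Ltv1, which leaves the precursor during its last steps, read 5.92, 6.39 and 6.32 in the controls, 5.54, 5.93 and 6.04 with shRNA1, and 5.58, 6.05 and 5.99 with shRNA2. Its control replicate 0 lay inside the range of the hairpin libraries, and its changes of -0.37 and -0.34 (SE 0.18 each) did not pass (limma adjusted p = 0.205 and 0.249; 0.00631 and 0.00954 with the replicate block). Nob1, the nuclease of the final cut, changed by -0.05 and Bysl by -0.15 in the average, and neither passed.

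Of the 14 factors of the large-subunit precursor 12 fell in the average, 0 rose and 2 did not pass, with a median of -0.31. Nop2, an rRNA methyltransferase (chromosome 6, 125131909 to 125144753, plus strand), read 7.30, 7.25 and 7.27 in the controls, 6.76, 6.80 and 6.78 with shRNA1, and 6.56, 6.62 and 6.59 with shRNA2. It fell by 0.49 (SE 0.06, limma adjusted p = 0.00248) and 0.68 (SE 0.06, adjusted p = 0.000643), to 71.1% and 62.2% of control. The libraries of each group stood close together and the 3 groups were in separate ranges. Between the hairpin lines the difference did not pass in the direct test. Noc2l, which travels with the precursor out of the nucleolus, read 7.08, 7.26 and 7.20 in the controls, 6.71, 6.79 and 6.77 with shRNA1, and 6.69, 6.76 and 6.74 with shRNA2. It fell by 0.43 (SE 0.07, limma adjusted p = 0.00772) and 0.45 (SE 0.07, adjusted p = 0.00583).

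Pes1, Bop1 and Wdr12 form a complex that the large subunit needs for its processing. Pes1 read 7.42, 7.33 and 7.43 in the controls, 7.09, 7.17 and 7.20 with shRNA1, and 7.11, 7.07 and 7.05 with shRNA2. It fell by 0.24 (SE 0.07, limma adjusted p = 0.0437) and 0.32 (SE 0.07, adjusted p = 0.0172). Bop1 fell in the average by 0.49 (SE 0.12, limma adjusted p = 0.0232) and Wdr12 by 0.23 (adjusted p = 0.0342). All 3 partners were thus lower in the average. With shRNA1, 4 members of the sub-step fell, and with shRNA2, 11 did; the difference between the lines was tested directly, and no member of the sub-step passed. The other members that fell in the average, Nip7, Nop16, Rrs1, Noc3l, Gnl2, Ebna1bp2 and Ppan, changed by between -0.34 and -0.26. Those that did not pass were Gnl3, nucleostemin (-0.29, limma adjusted p = 0.0524; 0.0366 with the replicate block), and Rrp1b (-0.37, adjusted p = 0.0636).

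**Figure D3:**
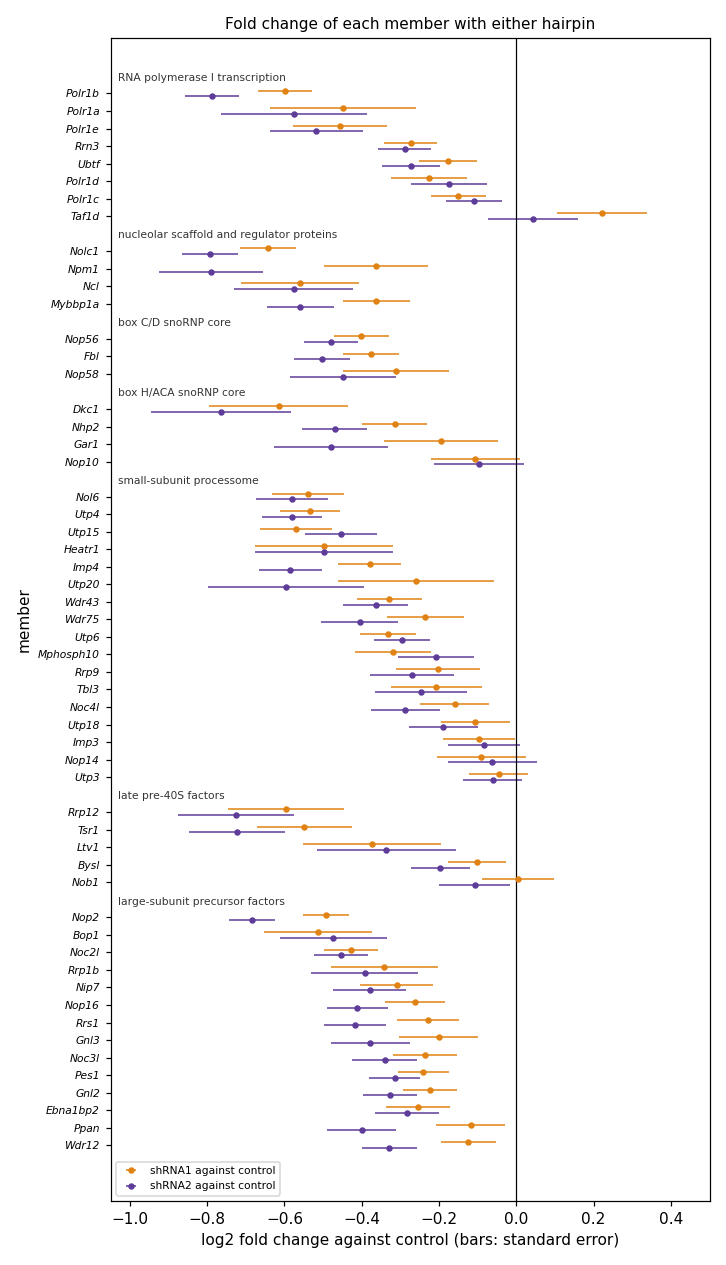
The horizontal axis is the log2 fold change against control, with orange points for shRNA1 and purple points for shRNA2, and the bars are standard errors. Of the 55 members 53 lie left of 0 with shRNA1 and 54 with shRNA2, and Taf1d is at 0.22 with shRNA1 and 0.04 with shRNA2.

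The sub-steps were set side by side by their level in each library. Over the 4 scaffold and regulator genes the mean deviation from control was -0.67, -0.42 and -0.36 in the shRNA1 libraries 0, 1 and 2, and -0.77, -0.66 and -0.61 in the shRNA2 libraries. Over the 8 genes of polymerase I transcription it was -0.31, -0.25 and -0.22, and -0.39, -0.28 and -0.33. Over all genes of the table the same mean lay between 0.04 and 0.05 in the hairpin libraries. In each of the 7 sub-steps all 6 hairpin libraries were below all 3 controls. The sub-steps differ in gene number and share libraries, and no test between them was made.

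**Figure D4:**
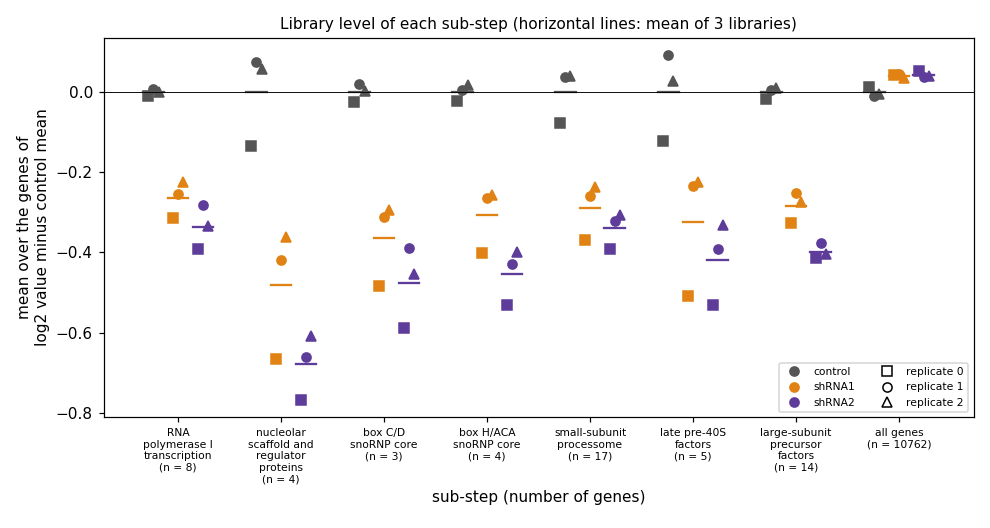
The vertical axis is the mean over the genes of a sub-step of the log2 value minus the control mean, with a symbol for each replicate number and a line at the mean of 3 libraries. Hairpin libraries lie below the controls in every sub-step, the squares of replicate 0 are the lowest of their group in all 7 sub-steps, and all genes together stay near 0.

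The lines were compared with each other directly, which uses no control library. Decr2 was lower with shRNA2 than with shRNA1 (log2 difference -1.66, SE 0.23, limma adjusted p = 0.0233). Of the members 0 of 55 passed, beside 0.455% of all genes. The median member differed by -0.10, and 44 of 55 members (80.0%) had a lower value with shRNA2, against 48.7% of all genes. The widest difference was that of Npm1 at -0.43 (95% interval -0.73 to -0.12, limma adjusted p = 0.282), and Nop2 differed by -0.19 (95% interval -0.32 to -0.06, adjusted p = 0.262). These intervals do not show that the lines are alike. With the replicate block Npm1 alone passed (adjusted p = 0.0219), beside 1.04% of all genes called lower and 0.827% called higher. Without the libraries numbered 0, 8 members passed as lower with shRNA2, while 8.87% of all genes passed in either direction. They were Npm1 (-0.46), Gar1 (-0.46), Utp20 (-0.44), Tsr1 (-0.28), Mybbp1a (-0.27), Wdr12 (-0.25), Dkc1 (-0.25) and Imp4 (-0.24), and limma adjusted p-values ran from 0.00219 to 0.0446.

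The libraries numbered 0 were compared with those numbered 1 and 2 within groups, a contrast that took no part in how the members were chosen. Of the 55 members 13 were lower in the libraries numbered 0, beside 14.9% of all genes, and 3 were higher, beside 15.2%. By direction these are 23.6% of the members lower and 5.45% higher. Together they are 29.1% of the members and 30.1% of all genes, so only the share in either direction is near the background. The median member differed by -0.08, and that of all genes by 0.01; by sign alone 45 members were below 0, against 49.0% of all genes. Ltv1 differed by -0.44 (SE 0.05, limma adjusted p = 0.000631), Utp20 by -0.48 (SE 0.08, adjusted p = 0.00235), Ncl by -0.35 (SE 0.06, adjusted p = 0.00258) and Npm1 by -0.30 (SE 0.05, adjusted p = 0.00368). These 4 genes were named for their low adjusted p in this contrast. The 3 members higher in the libraries numbered 0 were Bop1 (0.31), Taf1d (0.22) and Tbl3 (0.21). Without shRNA1 replicate 0 the count was 8 members, 7 lower and 1 higher, beside 17.7% of all genes in either direction. Among the 6 members with the lowest average in the hairpin lines, Dkc1 (-0.38, limma adjusted p = 0.0143), Rrp12 (-0.31, adjusted p = 0.0158) and Tsr1 (-0.25, adjusted p = 0.0224) were lower in the libraries numbered 0, while Nolc1 (-0.05), Polr1b (-0.07) and Nop2 (-0.01) did not pass.

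**Figure D5:**
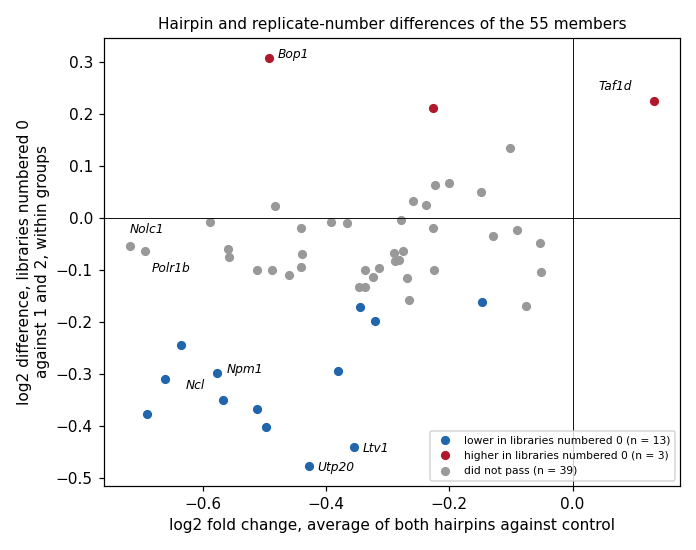
Each point is a member, with the average log2 fold change of both hairpins on the horizontal axis and the difference of the libraries numbered 0 from those numbered 1 and 2 on the vertical axis. The 13 blue points were lower and the 3 red points higher in the libraries numbered 0, and of the members farthest to the left, Nolc1 and Polr1b lie near 0 on the vertical axis and Dkc1, Rrp12 and Tsr1 between -0.38 and -0.25.

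Other genes of the pathway were read from lists of 124 genes, 122 of them in the table. In the average of both hairpins 42 of 122 fell, 1 rose and 79 did not pass, with a median of -0.20, beside 7.89% of all genes called lower and 9.69% called higher. Among other factors of the small subunit 16 of 34 fell, among other factors of the large subunit 17 of 39, among other snoRNP proteins and their assembly factors 4 of 11, and among exosome and RNase MRP proteins 3 of 22. Of the other polymerase I factors 2 of 16 fell and 1 rose. For the exosome and polymerase I lists these few genes are close to what the shares of all genes would give. Of the 122 genes, 24 fell with each hairpin. Without control replicate 1 or without control replicate 2 the number called in the average dropped to 16, 15 of them lower, beside 5.72% and 5.86% of all genes in either direction.

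Cd3eap, the partner of Polr1e in the polymerase, fell by 0.55 (SE 0.13, limma adjusted p = 0.0311) with shRNA1 and 0.53 (SE 0.13, adjusted p = 0.0335) with shRNA2. The gene that rose was Baz2a, a subunit of a complex that silences ribosomal DNA copies. Baz2a read 6.07, 6.10 and 6.15 in the controls, 6.64, 7.10 and 6.93 with shRNA1, and 6.95, 6.97 and 7.20 with shRNA2. It rose by 0.78 (SE 0.12, limma adjusted p = 0.006) and 0.93 (SE 0.12, adjusted p = 0.00309), with every hairpin library above every control. Pdcd11 and Wdr46 of the small-subunit pathway fell in the average by 0.63 and 0.56, and Tex10 and Nifk of the large-subunit pathway by 0.54 and 0.49. Snu13 and Ruvbl2, which serve snoRNPs, fell by 0.36 and 0.30. Dis3, the catalytic nuclease of the exosome, fell by 0.60, and Pop1, a protein of RNase MRP, by 0.51. Among the 22 exosome and RNase MRP proteins the median was -0.11.

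Because the pathway is known as a target of MYC, the genes of that family were read too. Myc read 7.13, 7.29 and 7.21 in the controls, 7.0, 7.10 and 7.09 with shRNA1, and 6.90, 6.99 and 7.04 with shRNA2. Its changes of -0.15 (SE 0.07, limma adjusted p = 0.216) and -0.24 (SE 0.07, adjusted p = 0.0662) did not pass, and with the replicate block that with shRNA2 passed (adjusted p = 0.024). Max, its partner, fell with shRNA2 by 0.41 (SE 0.08, limma adjusted p = 0.0154). Mxd1 and Mxd4, which compete with MYC for MAX, rose. They are named because they were called with both hairpins. The other family genes read, among them Mxi1, Mxd3, Mnt and Mga, were not called higher with either hairpin. Mxd4 read 4.60, 3.90 and 3.94 in the controls, 4.93, 4.95 and 4.74 with shRNA1, and 5.24, 5.19 and 5.17 with shRNA2, a rise of 0.72 (SE 0.17, limma adjusted p = 0.026) and 1.05 (SE 0.17, adjusted p = 0.00662). Mxd1 rose by 0.45 (SE 0.10, limma adjusted p = 0.0232) and 0.66 (SE 0.10, adjusted p = 0.00592). Of the 9 family genes in the table, 1 fell and 2 rose in the average, counts close to the 7.89% and 9.69% of all genes. By sign alone 5 of the 9 were below 0 in the average, and the median was -0.05. Whether these genes have a part in the members' values was not tested.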

How the data were processed

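The deposited table gave 1 log2 value per gene and library, which the authors had scaled. Raised to the power of 2, the values summed to between 1014944 and 1045849 in the control libraries. In the hairpin libraries they summed to between 969465 and 997650, below every control. Kallisto, FastQC and limma were used, per the submitters' processing notes. Strand, annotation, genome build and any filter on low values were not given in the sources used here. P-values, moderated t scores and fold changes that the authors deposited were used for checks only: their table called 21 members with shRNA1 and 32 with shRNA2 at an adjusted p under 0.05, and all of these were called here. Columns were tied to the hairpins by the headed fold changes of that table, which differed from the column means by a median of 0.000744 (shRNA1) and 0.00133 (shRNA2). If those headings were exchanged, the hairpin names would be exchanged too.

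Limma 3.58.1 in R 4.3.3 was fitted to all 10762 genes and 9 libraries with a mean per group and an intensity trend (6 residual and 3.3 prior degrees of freedom), with Benjamini-Hochberg adjustment over all genes and a threshold of 0.05. The libraries numbered 0 were tested in a model with group means and 1 term for that number. No filter or pseudocount was used. The fit with the replicate block, for the average, and the fit for the libraries numbered 0 were tested on simulated data with independent noise. The main fit, with a mean per group alone, was not tested in this way. The depth is unknown, so the spread between libraries gives the precision. Same-numbered libraries of different groups deviated together in all 9 pairs (r across genes between 0.126 and 0.644, all above 0.1). The numbers in the titles were therefore taken to pair them in the fit with the replicate block, although no label says what they mark. The main fit did not use this pairing. For differently numbered libraries r ran from -0.629 to 0.531. It was below 0 wherever a library numbered 0 met one numbered 1 or 2, and above 0 between numbers 1 and 2. The r of shRNA1 library 1 was 0.531 with shRNA2 library 2 and 0.126 with shRNA2 library 1. These values set number 0 apart but do not show that numbers 1 and 2 pair, so results with the replicate block rest on an assumed pairing.

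Members, sub-steps and lists were chosen with earlier results of these data known. Named in full were, per sub-step, up to 4 members called with both hairpins by their smaller change, filled up to 2 by the average, and the 4 members with the lowest adjusted p for the libraries numbered 0; of each other list, 2 genes, and Myc. Alternatives were the replicate block, only the groups compared, no intensity trend, removal of the lowest 25% of genes, centred or quantile-normalized libraries, a pseudocount of 1, a fold minimum of 0.5, each library left out, and the libraries numbered 0 left out.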

Additional observations from a re-analysis of the deposited data

Results flagged for a closer look

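Decr2 differed between the hairpin lines by -1.66 on the log2 scale (shRNA2 over shRNA1; limma adjusted p = 0.0233), a difference between groups found by the direct test. None of the 55 members passed the same test, which does not show that the lines are alike. By sign alone 44 of the 55 were lower with shRNA2 (80.0%, against 48.7% of all genes). With the replicate block 1 member passed, and without the libraries numbered 0 there were 8, beside 1.87% and 8.87% of all genes in either direction.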

How the results depend on the processing

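In the hairpin comparisons all members called were lower under each alternative, save 1 member called higher with shRNA1 (Taf1d) and 1 in the average without the libraries numbered 0. The replicate block, which changed no other count of members by over 1.5 times, gave 34 members with shRNA1, 33 with both hairpins and 1 between the lines, beside 24.6%, 15.4% and 1.87% of all genes in either direction. With only the groups compared, 12 were called with shRNA1 and 12 with both (6.27% and 4.46%). Without the libraries numbered 0 the counts were 40 with shRNA1, 35 with both and 8 between the lines; the shares of all genes rose too, to 34.5%, 23.7% and 8.87%, from 12.4%, 7.55% and 0.455%, and 72 of the other pathway genes were called in the average (68 lower, 4 higher). A fold minimum of 0.5 left 9 with shRNA1, 14 with shRNA2, 11 in the average, 7 with both and 0 for the libraries numbered 0 (6.37%, 6.44%, 7.07%, 3.56% and 7.93% of all genes), and 11 other pathway genes.

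Leaving out 1 library in turn gave 7 to 23 members with shRNA1, 12 to 40 with shRNA2, 12 to 39 in the average, 6 to 18 with both, 8 to 17 for the libraries numbered 0, and 16 to 53 other pathway genes. The share of all genes called in either direction then ran from 3.05% to 14.7% with shRNA1 and from 3.77% to 22.8% with shRNA2. It ran from 5.72% to 24.5% in the average, from 1.75% to 9.87% with both and from 17.7% to 35.2% for the libraries numbered 0. Counts moved by over 1.5 times without control replicates 1 and 2, and also with shRNA1 without shRNA1 replicate 2 (11). With shRNA2 they did so without shRNA2 replicates 0 (20), 1 (16) and 2 (18), and with both hairpins without shRNA1 replicate 2 (11) and shRNA2 replicates 1 (12) and 2 (13). Decr2 stayed between -1.23 and -0.90 with shRNA1 and missed the threshold there when control replicate 1 (limma adjusted p = 0.0872), control replicate 2 (0.0537) or the shRNA1 library numbered 1 (0.0579) was left out. The median of the late small-subunit factors ran from -0.50 to -0.26. Quantile normalization moved the medians of polymerase I transcription to -0.19 and of the scaffold proteins to -0.41; the cause was not tested.

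The 22 named members were scored in the average under the alternatives other than the fold minimum and the fit of only the groups compared. Of these values, 333 kept direction and call, 15 lost the call (7 without control replicate 1, 8 without control replicate 2) and 0 reversed. The call was gained by 4 (Ltv1 and Utp20, with the replicate block and without the libraries numbered 0). Named members with small changes in the average, such as Rrn3 (-0.28) and Pes1 (-0.28), fall short of the fold minimum and would lose the call under it. The depth is unknown and 3 libraries a group limit what can be called.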

Other observations

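Genes inside which snoRNAs are encoded were frequent among the members. By GENCODE M21 on GRCm38, 9 of 55 members (16.4%) span at least 1 annotated snoRNA gene on their own strand, against 2.04% of 10759 genes of the table with a position. They were Taf1d with 8 snoRNA genes, Nop56 with 5, Nop58 with 4, Ncl, Wdr43 and Gnl3 with 3 each, Tsr1 and Ppan with 2 each, and Dkc1 with 1. Of these 9 hosts, 6 fell in the average of both hairpins and their median change was -0.38; of the other 46 members 27 fell, with a median of -0.33. Taf1d, the host with the most snoRNA genes, was also the member with a positive average. The deposited table gives 1 value per gene, so snoRNA levels were not analysed here.

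The members lie on 18 chromosomes, with at most 8 on any of them.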
